A study of Homo sapiens with 16 samples.

Results

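Arginine metabolism was described here through 9 genes, of 60606 gene names counted in each library: ASS1 and its 8 partners ASL, SLC7A1, ARG2, OAT, ODC1, GATM, ALDH18A1 and PYCR1. They were picked by name, with results from these libraries already known. ASS1 heads the set, so its levels are given as a description with no test, and the partners are given with p-values adjusted over all genes tested. The study sequenced polyadenylated RNA from 786-O and A498, established lines of clear cell renal cell carcinoma that lack functional VHL, and compared cells with and without SETD2, the enzyme behind trimethylation of histone H3 at lysine 36. The 12 libraries of 786-O were SETD2 KO cells in 100 nM A1331852, SETD2 WT cells in 100 nM A1331852, SETD2 KO cells in DMSO and SETD2 WT cells in DMSO, with 3 libraries each, harvested at 72 h. A1331852 inhibits the anti-apoptotic protein BCL-XL, and DMSO is its vehicle. The 4 libraries of A498, given no treatment, were labelled SETD2 deficient and SETD2 add-back, with 2 libraries each. The labels do not say whether a genotype was 1 clone or a pool.

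Arginine can be made inside the cell or taken up. ASS1 joins citrulline to aspartate and ASL splits the product into arginine and fumarate, while SLC7A1 is the transporter CAT-1, which carries arginine and other cationic amino acids across the plasma membrane. ARG2, the mitochondrial arginase, cleaves arginine to ornithine, which ODC1 turns into putrescine for polyamine synthesis and OAT turns into glutamate semialdehyde. ALDH18A1 makes the same intermediate out of glutamate, PYCR1 reduces it in its cyclic form to proline, and GATM starts creatine synthesis from arginine. Low ASS1 is known in renal cancers and leaves such cells dependent on arginine from outside.

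Libraries held 14172118 to 36037616 counts. SETD2 transcript averaged 43.2 ± 12.2 CPM in KO and 67.6 ± 4.16 CPM in WT cells in A1331852 (SD, n = 3 each), and 29.3 ± 1.18 CPM in KO and 68.1 ± 2.99 CPM in WT cells in DMSO (SD, n = 3 each). CPM is a count scaled to a common library total, with TMM factors. In A498 it was 41.1 and 59.4 CPM in the deficient libraries and 44.9 and 53.8 CPM in the add-back libraries, so the transcript did not separate these labels, and the A498 groups are called here by what they were labelled. The counts of whole exons do not show whether a transcript carries the knockout mutation. PAX8, a renal epithelial marker, lay between 120 and 367 CPM in all 16 libraries, while CA9, a marker of clear cell carcinoma, was at most 0.837 CPM and at 0 in 7 of them. Leukocyte markers summed to at most 1.48 CPM and endothelial markers to at most 0.373 CPM in any library. Fibroblast markers moved with the genotype in 786-O: the 3 of them summed to 1.12 to 1.59 CPM in KO and 7.57 to 8.98 CPM in WT libraries in A1331852, and to 1.61 to 2.91 CPM in KO and 5.21 to 10.0 CPM in WT libraries in DMSO, mostly from LUM. DCN, another of the 3, was at most 0.166 CPM, and the part of this list in the results below was not tested. The labels gave 3 batches. All A1331852 libraries and the DMSO replicates 3 were batch 1, the DMSO replicates 1 and 2 were batch 2, and A498 was batch 3. Line and batch therefore cannot be told apart between 786-O and A498.

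The 9 genes differed widely in level. Per kilobase of exon, the highest group mean was 89.99 CPM for PYCR1, 79.8 CPM for ALDH18A1, 59.7 CPM for ODC1, 50.1 CPM for OAT and 23.3 CPM for SLC7A1. It was 8.21 CPM per kilobase for ASL, 3.20 for ARG2, 0.835 for ASS1 and 0.237 for GATM. Proline synthesis, ornithine use and arginine uptake were thus represented by abundant transcripts, and ASS1 and GATM were scarce in both lines. In bulk RNA, fewer cells that express a gene and less RNA of it per cell cannot be told apart.

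**Figure D1:**
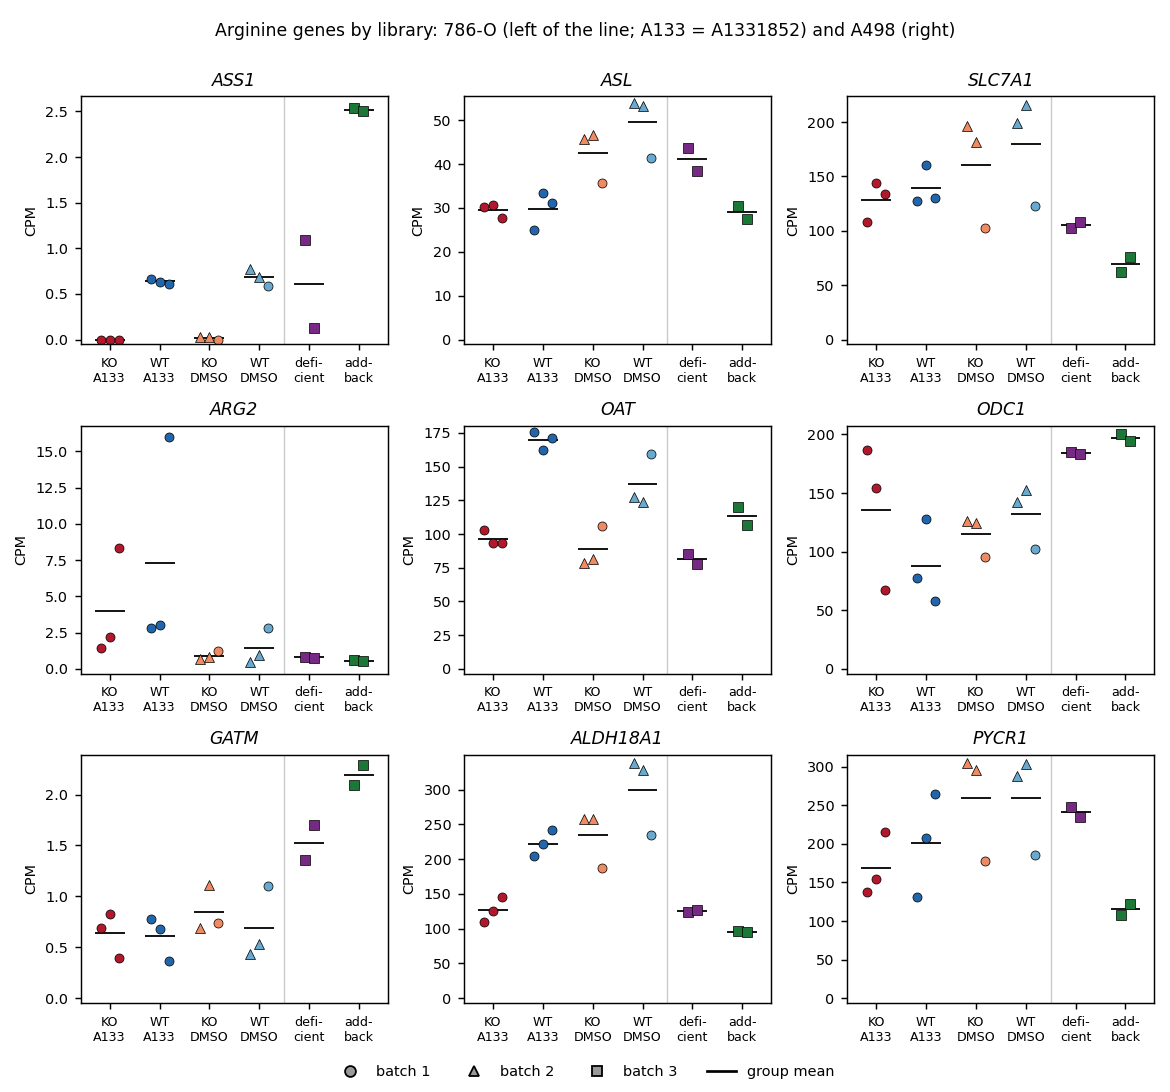
Level of each of the 9 genes in every library, in CPM on TMM-scaled totals (vertical axis, from 0), for the 4 groups of 786-O and the 2 groups of A498. Points are libraries, their shape gives the batch, and bars are group means; ASS1 was at 0 in all 3 KO libraries in A1331852 and lay between 0.611 and 0.669 CPM in the 3 WT libraries beside them.

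ASS1, the first enzyme of arginine synthesis, was nearly absent from SETD2 KO cells of 786-O. In A1331852 it had 0 counts in each of 3 KO libraries, and 12, 14 and 10 counts in the WT libraries. In DMSO it had 1, 1 and 0 counts in KO libraries, and 25, 18 and 9 counts in WT libraries. The KO and WT libraries did not overlap under either treatment, and within batch 1 and within batch 2 the order was the same.

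The group means of ASS1 were 0 in KO and 0.637 ± 0.0298 CPM in WT cells in A1331852, and 0.0199 ± 0.0173 CPM in KO and 0.681 ± 0.0968 CPM in WT cells in DMSO (SD, n = 3 each). A count of 3 over the 3 KO libraries in A1331852, set as the floor for 0 counts, corresponds to 0.0565 CPM. The WT level there was 11.3-fold above that floor, a ratio that leaves out the counting error of the WT libraries. That ratio was 7.29 without KO replicate 1 and 7.19 without KO replicate 2, because fewer counts then stand behind the 0. In DMSO, over 2 summed counts in KO and 52 in WT libraries, the ratio of WT to KO was 30.7 with a 95% exact interval of 8.08 to 260, which covers counting error only. ASS1 passed the low-count filter through its WT libraries, so its passing shows nothing by itself.

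In A498 the ASS1 level was low in the deficient and higher in the add-back libraries. It was 1.10 and 0.130 CPM (17 and 2 counts) in the deficient libraries, and 2.54 and 2.50 CPM (46 and 47 counts) in the add-back libraries. The groups did not overlap, but the 2 deficient libraries differed from each other far more than the add-back libraries did. The ratio of add-back to deficient was 4.09 (95% exact interval 2.48 to 7.10), with 19.3 when deficient replicate 1 was left out and 2.30 when deficient replicate 2 was. Deficient replicate 1, the library with the 17 counts, also stood apart in ALB, the hepatocyte gene for albumin, at 12.05 CPM, against 0.196 CPM in deficient replicate 2 and at most 0.166 CPM in the add-back libraries. Of the other hepatocyte markers, ARG1 and OTC were at 0 counts in it and CPS1 was at 9.21 CPM. CPS1 was 10.5 CPM in deficient replicate 2, and 14.5 and 16.4 CPM in the add-back libraries. The 4 hepatocyte markers summed to 10.8 to 21.3 CPM in the deficient and 14.6 to 16.5 CPM in the add-back libraries. Outside deficient replicate 1 these sums were mostly CPS1. The part of these markers in the ASS1 level was not tested. Over the 6 groups the order ran A498 add-back, WT DMSO, WT A1331852, A498 deficient, KO DMSO, KO A1331852. The ranges of WT DMSO and WT A1331852, of WT A1331852 and A498 deficient, and of KO DMSO and KO A1331852 overlapped.

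ASS1 has many processed pseudogenes, which can share reads with it. The tables list 14 ASS1 pseudogenes, with 50 counts in all 16 libraries together and no more than 8 counts for any of them in a library. Their summed counts were 9 in KO and 6 in WT cells in A1331852, 6 in KO and 13 in WT cells in DMSO, and 5 in deficient and 11 in add-back libraries. Reads that fit ASS1 and a pseudogene equally were dropped with the uniquely placed alignments, so the ASS1 level may be too low by an unknown margin.

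Promoters are shown for the 3 genes whose SETD2 KO libraries all lay below the WT libraries in A1331852. Each stretch is 250 bases before a RefSeq transcript start (GRCh38.p14), with matches to CACGTG (the E-box bound by MYC and related factors) or GGGCGG (the GC box bound by SP1) on either strand in capitals; overlapping matches run together. The ASS1 stretch, at chr9:130444711-130444960 on the plus strand, holds 1 E-box and 2 GC boxes and ends at the gene start given in the deposited tables. A second ASS1 window, at chr9:130444457-130444706 and not printed, holds 0 E-boxes and 2 GC boxes. The OAT stretch, at chr10:124418924-124419173 on the minus strand, holds 4 GC boxes. The ALDH18A1 stretch, at chr10:95656712-95656961 on the minus strand, holds 1 E-box.
ASS1: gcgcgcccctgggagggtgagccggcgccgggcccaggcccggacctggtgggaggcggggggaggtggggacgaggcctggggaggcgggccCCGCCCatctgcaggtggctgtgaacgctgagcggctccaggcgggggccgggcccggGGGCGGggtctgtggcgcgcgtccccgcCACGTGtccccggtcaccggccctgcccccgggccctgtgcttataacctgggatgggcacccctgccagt
OAT: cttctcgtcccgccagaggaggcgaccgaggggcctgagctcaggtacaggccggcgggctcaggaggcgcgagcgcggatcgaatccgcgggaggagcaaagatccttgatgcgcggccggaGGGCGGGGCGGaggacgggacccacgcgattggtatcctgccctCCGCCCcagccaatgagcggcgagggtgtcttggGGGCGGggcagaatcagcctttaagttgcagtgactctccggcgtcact
ALDH18A1: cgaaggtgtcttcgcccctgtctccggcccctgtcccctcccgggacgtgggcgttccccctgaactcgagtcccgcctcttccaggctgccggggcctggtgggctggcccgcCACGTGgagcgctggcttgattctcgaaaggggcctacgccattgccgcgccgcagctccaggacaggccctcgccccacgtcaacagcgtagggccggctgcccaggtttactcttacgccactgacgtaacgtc
Of 35116 promoter windows of that length, 6.34% hold the E-box and 42.6% the GC box. In 8 of the 9 genes a window was found, with 10 windows in all. The motifs did not set the 3 printed genes apart. GC boxes also stood in the windows of ASL (4), ARG2 (5), ODC1 (4 in each window), SLC7A1 (6) and GATM (3). An ODC1 window held 1 E-box as well. A match is a description of the letters and no evidence that a factor binds.

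ASS1 lies on chromosome 9 at 130444961 to 130501274, OAT on chromosome 10 at 124397303 to 124418976 and ALDH18A1 on chromosome 10 at 95605941 to 95656711 (GRCh38, as in the deposited tables).

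Few of the partners differed between KO and WT cells of 786-O, and OAT was the partner that fell in KO cells under both treatments. In A1331852, 2 of 8 partners fell in KO relative to WT cells and 0 rose, while of all 16260 genes tested 15.0% fell and 13.2% rose (28.2% called). In DMSO, 1 of 8 fell and 0 rose, while 10.2% of all genes fell and 8.29% rose (18.5% called). Set against that background, these counts are no result about the set as a whole. With replicate numbers as a block of KO and WT libraries within each treatment, the counts were 4 in A1331852 and 2 in DMSO. In DMSO such pairs cannot be told apart from the batch. The block also raised the calls over all genes, to 6278 in A1331852 (4588 without it) and to 4646 in DMSO (3001 without it). The median log2 change of the 8 partners was -0.18 in A1331852 and -0.19 in DMSO, beside -0.01 and -0.02 over all genes. These comparisons share no libraries.

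OAT, which feeds ornithine toward proline and glutamate, was lower in KO cells in every batch. It was 103, 93.0 and 93.5 CPM in KO libraries in A1331852, and 175, 162 and 171 CPM in WT libraries. In DMSO it was 78.3, 81.7 and 106 CPM in KO libraries, and 128, 123 and 160 CPM in WT libraries. The KO and WT ranges did not overlap in either treatment and were far apart in A1331852. In each genotype the batch 1 library was the highest of those in DMSO. By edgeR's quasi-likelihood test with Benjamini-Hochberg adjustment over all genes, the log2 change of OAT was -0.81 ± 0.10 (SE, adjusted p = 1.30e-04) in A1331852 and -0.62 ± 0.10 (SE, adjusted p = 0.00108) in DMSO. The KO level was 0.665 of the WT level in batch 1 and 0.637 in batch 2 among DMSO libraries, and 0.569 in A1331852. The call held in all alternatives of both comparisons.

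ALDH18A1, which starts proline and ornithine synthesis out of glutamate, fell in KO cells in A1331852. It was 110, 126 and 146 CPM in KO libraries there, and 204, 222 and 242 CPM in WT libraries. The groups did not overlap, and the log2 change was -0.81 ± 0.12 (SE, adjusted p = 5.85e-04 by edgeR), which held in all alternatives. In DMSO it was 258, 257 and 188 CPM in KO libraries, and 338, 328 and 234 CPM in WT libraries. There each KO library was below the WT library of its own batch, and the log2 change of -0.34 ± 0.12 did not pass (adjusted p = 0.0678 by edgeR). It passed with the replicate block (adjusted p = 0.0161 by edgeR) and in batch 2 alone (adjusted p = 9.74e-07).

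ODC1 and ARG2, which draw on ornithine and arginine, varied widely between replicates in A1331852. ODC1, the rate-limiting enzyme of polyamine synthesis, was 186, 154 and 67.3 CPM in KO libraries in A1331852, and 77.7, 128 and 58.3 CPM in WT libraries. Replicate 3 was the lowest of its group in each genotype, and the groups overlapped. The log2 change of ODC1 was 0.63 ± 0.33 and did not pass (adjusted p = 0.174 by edgeR). It passed with no low-count filter (adjusted p = 8.92e-04 by edgeR) and with the replicate block (0.0259). It also passed without KO replicate 3 (0.0137) and without both replicates 3 (0.00857). In DMSO ODC1 was 126, 124 and 95.5 CPM in KO libraries, and 142, 152 and 102 CPM in WT libraries. The log2 change there was -0.18 ± 0.32 (adjusted p = 0.758 by edgeR), and -0.19 in batch 2 alone (adjusted p = 0.00148).

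ARG2 went the other way from ODC1 in the A1331852 libraries. It was 1.44, 2.23 and 8.36 CPM in KO libraries in A1331852, and 2.84, 3.06 and 16 CPM in WT libraries. Replicate 3 was by far the highest in each genotype, and the groups overlapped. The log2 change was -0.88 ± 0.72 (adjusted p = 0.393 by edgeR). It was -0.88 with no low-count filter (adjusted p = 0.0123 by edgeR) and -0.80 with the replicate block (adjusted p = 0.0328 by edgeR). Without both replicates 3 it was -0.68, and without WT replicate 3 alone it was 0.40. What sets the replicates 3 apart was not tested. In DMSO ARG2 was 0.664, 0.803 and 1.23 CPM in KO libraries, and 0.466, 0.95 and 2.85 CPM in WT libraries, where the batch 1 library was again the highest of each group.

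The other partners showed no called difference between KO and WT cells. ASL, the second enzyme of arginine synthesis, averaged 29.6 ± 1.60 CPM in KO and 29.8 ± 4.36 CPM in WT cells in A1331852, and 42.6 ± 6.09 CPM in KO and 49.5 ± 7.03 CPM in WT cells in DMSO (SD, n = 3 each). SLC7A1, the arginine importer, averaged 129 ± 18.2 CPM in KO and 140 ± 18.5 CPM in WT cells in A1331852, and 160 ± 50.5 CPM in KO and 179 ± 49.7 CPM in WT cells in DMSO. Neither ASL nor SLC7A1 was thus called in the main fit, while ASL passed in DMSO in batch 2 alone (log2 change -0.17, adjusted p = 0.0113 by edgeR). Of 8 other tested genes of cationic amino acid transport and arginine sensing, 3 fell and 0 rose in DMSO, beside 18.5% of all genes called. In A1331852, 1 of the 8 fell and 0 rose, beside 28.2%. SLC7A6 fell in DMSO by -0.85 ± 0.18 on the log2 scale (adjusted p = 0.00747 by edgeR) and did not pass in A1331852. PYCR1, which makes proline, averaged 169 ± 40.9 CPM in KO and 201 ± 66.4 CPM in WT cells in A1331852, and 260 ± 70.6 CPM in KO and 259 ± 64.1 CPM in WT cells in DMSO. GATM, the first enzyme of creatine synthesis, stayed between 0.366 and 1.11 CPM in all 12 libraries of 786-O. In DMSO its KO level was 0.671 of WT in batch 1 and 1.87 times WT in batch 2. GATM passed in batch 2 alone (log2 change 0.94, adjusted p = 0.0381 by edgeR). The KO and WT ranges of all 4 genes overlapped in either treatment. Within DMSO, the KO level of ASL was 0.860 of WT in batch 1 and 0.861 in batch 2.

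**Figure D2:**
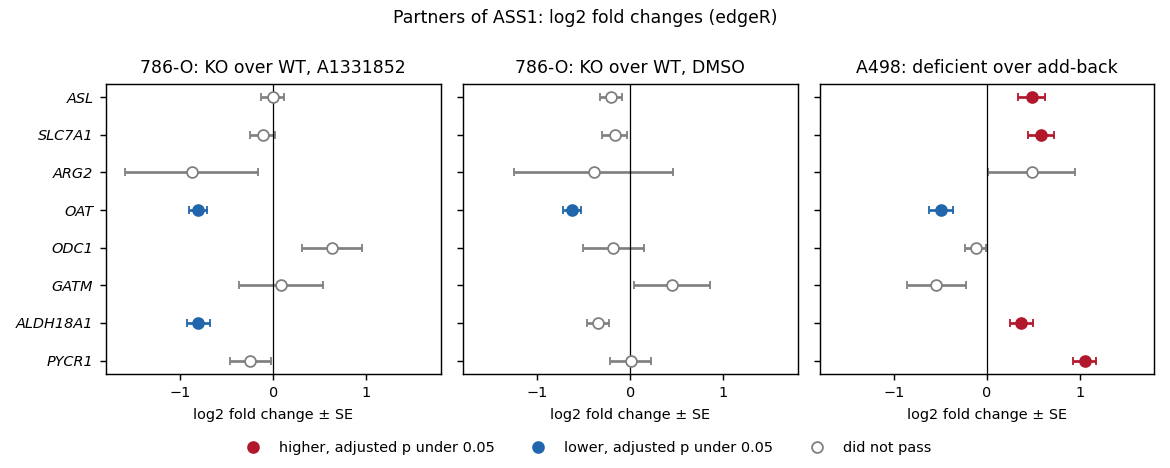
Log2 fold change ± SE (horizontal axis, edgeR) of the 8 partners of ASS1, for KO over WT cells of 786-O in A1331852 (3 libraries each), KO over WT in DMSO (3 each), and A498 libraries labelled deficient over add-back (2 each). Filled points had an adjusted p under 0.05; OAT is to the left of 0 in all 3 panels, and PYCR1 at 1.05 is the farthest to the right in A498.

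Few partners were called for A1331852 itself. In KO cells, 1 of 8 partners fell and 0 rose with A1331852 relative to DMSO, while 7.08% of all genes fell and 6.46% rose (13.5% called). That partner was ALDH18A1, at 127 ± 18.1 CPM in A1331852 and 235 ± 40.4 CPM in DMSO (SD, n = 3 each), with a log2 change of -0.56 ± 0.15 once batch was in the fit (adjusted p = 0.0270 by edgeR). The call was lost when any KO library except A1331852 replicate 3 was left out (adjusted p 0.0600 to 0.210) and within batch 1 alone (adjusted p = 0.353), which holds 1 KO library in DMSO.

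In WT cells, 0 of 8 partners passed by edgeR, with 1 at an unadjusted p under 0.05, against 0.141% of all genes called. This partner was ASL, with a log2 change of -0.47 ± 0.15 (adjusted p = 0.217 by edgeR). ALDH18A1 averaged 222 ± 18.8 CPM in A1331852 and 300 ± 56.9 CPM in DMSO in WT cells. Its log2 change there was -0.09 ± 0.15 once batch was in the fit (adjusted p = 0.837 by edgeR). For the difference between the responses of KO and WT cells, 0 of 8 passed by edgeR, with 1 at an unadjusted p under 0.05, against 0.295% of all genes. That was ALDH18A1, whose response was lower in KO than in WT cells by a log2 difference of -0.46 ± 0.17 (adjusted p = 0.333 by edgeR), and by -0.51 (adjusted p = 0.0499) without both replicates 3. ODC1 had a log2 difference of responses of 0.81 ± 0.46 (adjusted p = 0.575 by edgeR), the opposite direction, which passed without both replicates 3 (0.91, adjusted p = 0.0446) and with no low-count filter (adjusted p = 0.0171). These comparisons share libraries with those of KO against WT.

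ARG2 was higher on average in A1331852 than in DMSO in each genotype, but did not pass. It averaged 4.01 ± 3.79 CPM in A1331852 and 0.900 ± 0.296 CPM in DMSO in KO cells, and 7.30 ± 7.53 CPM in A1331852 and 1.42 ± 1.26 CPM in DMSO in WT cells (SD, n = 3 each). The log2 change was 1.20 ± 1.02 in KO cells (adjusted p = 0.472 by edgeR) and 1.69 ± 0.94 in WT cells (adjusted p = 0.482). With no low-count filter both passed (adjusted p = 0.0251 in KO and 3.12e-04 in WT cells), and without both replicates 3 the changes were 0.12 in KO and 0.39 in WT cells (adjusted p = 0.871 and 0.688). ASS1 in WT cells was 0.669, 0.631 and 0.611 CPM in A1331852, and 0.777, 0.684 and 0.583 CPM in DMSO, so the ranges overlapped.

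Part of the spread in DMSO followed the batch. SLC7A1 was 1.84 times as high in batch 2 as in batch 1 in KO cells and 1.69 times in WT cells, PYCR1 1.68 and 1.59 times, and ALDH18A1 1.37 and 1.42 times. OAT was lower in batch 2, at 0.754 of batch 1 in KO and 0.786 in WT cells. Set against the batch 1 library in DMSO alone, the mean in A1331852 was 0.676 of it for ALDH18A1 in KO cells and 0.949 in WT cells, 0.949 and 1.08 for PYCR1, and 0.832 and 0.720 for ASL. It was 3.25 times that library for ARG2 in KO cells and 2.56 times in WT cells, and 1.42 and 0.863 times for ODC1. Only 1 DMSO library per genotype stands behind these ratios.

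**Figure D3:**
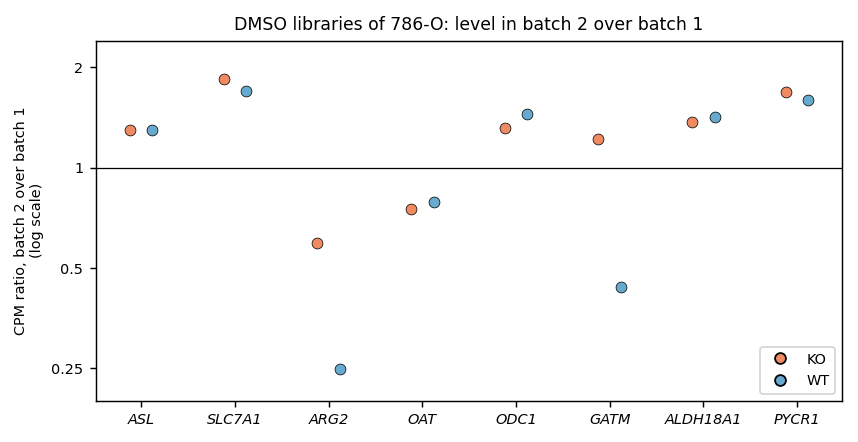
Ratio of the mean CPM of the 2 batch 2 libraries to the CPM of the batch 1 library (vertical axis, log scale) for the 8 partners in DMSO, in KO and WT cells of 786-O. The line marks equal levels; ASL, SLC7A1, ODC1, ALDH18A1 and PYCR1 lie above it in both genotypes, ARG2 and OAT below it, and GATM on either side.

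In A498 more of the partners differed. Of the 8, 4 were higher in the libraries labelled deficient than in those labelled add-back and 1 was lower, against 15.1% of all 15424 genes higher and 15.1% lower, or 30.2% in all. The median log2 change was 0.42 for the 8 partners and -0.01 for all genes. With 2 libraries a group the calls leaned on single libraries: without add-back replicate 1 only PYCR1 passed (1 of 8), and without add-back replicate 2, 2 of 8 did. Without deficient replicate 1, the library with the higher ALB level, 5 of 8 passed.

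PYCR1 showed the largest change among the 8 in A498. It was 248 and 235 CPM in the deficient libraries, and 108 and 122 CPM in the add-back libraries. The groups were well apart, and the log2 change was 1.05 ± 0.12 (SE, adjusted p = 2.21e-05 by edgeR), which held in all alternatives. ALDH18A1, upstream of it, was 124 and 127 CPM in the deficient and 96.0 and 95.1 CPM in the add-back libraries, with a log2 change of 0.37 ± 0.12 (adjusted p = 0.0343 by edgeR). That call was lost without either add-back library (adjusted p 0.281 and 0.317), with upper-quartile scaling (0.0571) and without the low-count filter (0.0610).

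SLC7A1 and ASL were also higher in the deficient libraries. SLC7A1 was 102 and 108 CPM in the deficient and 62.4 and 76.0 CPM in the add-back libraries, with a log2 change of 0.58 ± 0.14 (adjusted p = 0.00548 by edgeR) that was lost without add-back replicate 1 (adjusted p = 0.199). ASL was 43.7 and 38.5 CPM in the deficient and 30.5 and 27.5 CPM in the add-back libraries, with a log2 change of 0.48 ± 0.14 (adjusted p = 0.0209 by edgeR). ASL lost its call without add-back replicate 1 (adjusted p = 0.111) or 2 (0.283). ASL thus stood opposite to ASS1, whose level was lower in the deficient libraries.

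OAT was the partner that fell in A498 as well. It was 85.5 and 77.7 CPM in the deficient libraries, and 120 and 107 CPM in the add-back libraries. The groups did not overlap, and the log2 change was -0.49 ± 0.13 (adjusted p = 0.0111 by edgeR), lost without add-back replicate 1 (adjusted p = 0.253) or 2 (0.0672). ODC1 was 185 and 183 CPM in the deficient and 200.4 and 194 CPM in the add-back libraries, ARG2 0.837 and 0.783 against 0.607 and 0.533 CPM, and GATM 1.35 and 1.70 against 2.10 and 2.29 CPM. None of these 3 passed, although the groups of each did not overlap.

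Whether SETD2 loss acted differently in the lines was tested as the KO against WT change in DMSO in 786-O minus the deficient against add-back change in A498. In that test 4 of 8 partners passed, and for all 4 the change was lower in 786-O than in A498. Of all 17868 genes, 13.2% were called, and 7.10% had a lower change in 786-O. None of the 4 was called for KO against WT in DMSO, and all 4 were called higher in the deficient libraries of A498. They were PYCR1 at -1.08 ± 0.32 (adjusted p = 0.0363), SLC7A1 at -0.77 ± 0.21 (0.0224), ALDH18A1 at -0.74 ± 0.18 (0.0128) and ASL at -0.72 ± 0.19 (0.0218), as log2 differences ± SE by edgeR. OAT, which fell in each line, was not called in the difference. With any single DMSO or A498 library left out, 0 to 2 of the 8 partners passed. The lines also differ in batch, in the kind of genetic change and in treatment, DMSO in 786-O and none in A498.

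Beyond these 9, 64 other genes of arginine, polyamine and proline metabolism were listed, of which 48 could be tested in 786-O and 47 in A498. In KO against WT cells of 786-O, 2 rose and 9 fell in A1331852 (22.9% of those tested), and 3 rose and 7 fell in DMSO (20.8%), shares close to those of all genes. In A498, 11 were higher and 6 lower in the deficient libraries (36.2%), near the 30.2% of all genes called there (15.1% higher and 15.1% lower). Of the 17 polyamine genes, 8 passed in A498, 6 of them higher. In KO against WT cells of 786-O in DMSO, 1 of the 17 passed, beside 18.5% of all genes, and no difference between roles or lines was tested for the group.

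GAMT, which completes creatine synthesis after GATM, fell in 786-O under both treatments. It was 13.8, 11.4 and 13.7 CPM in KO and 49.1, 60.9 and 54.8 CPM in WT libraries in A1331852, and 18.8, 21.1 and 22.8 CPM in KO and 64.2, 69.4 and 59.4 CPM in WT libraries in DMSO. The groups were far apart, with log2 changes of -2.08 ± 0.14 (adjusted p = 2.83e-06) and -1.61 ± 0.14 (adjusted p = 1.92e-05) by edgeR. ALDH4A1, the mitochondrial enzyme that oxidises glutamate semialdehyde, averaged 13.2 ± 1.16 CPM in KO and 29.0 ± 4.60 CPM in WT cells in A1331852, and 31.9 ± 4.06 CPM in KO and 56.2 ± 7.08 CPM in WT cells in DMSO (SD, n = 3 each). It fell by 1.14 and by 0.81 on the log2 scale (adjusted p = 1.18e-04 and 0.00128 by edgeR).

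SLC7A7, the light chain of the y+LAT1 transporter, which exports arginine across the basolateral membrane of kidney epithelium, moved in opposite directions in the lines. It averaged 1.30 ± 0.246 CPM in KO and 4.43 ± 1.05 CPM in WT cells in A1331852, and 2.23 ± 0.368 CPM in KO and 10.1 ± 2.73 CPM in WT cells in DMSO (SD, n = 3 each). In A498 it was 37.9 and 35.7 CPM in the deficient libraries and 14.6 and 15.4 CPM in the add-back libraries. The difference between the lines was -3.41 ± 0.32 on the log2 scale (adjusted p = 5.95e-06 by edgeR) and held in all alternatives. SRM, spermidine synthase, and SMOX, spermine oxidase, were higher in the deficient libraries of A498. Their log2 changes were 1.03 ± 0.13 and 1.06 ± 0.15 (adjusted p = 5.33e-05 and 1.04e-04 by edgeR). Neither was called for KO against WT in DMSO (-0.40 ± 0.18 and -0.57 ± 0.27, adjusted p = 0.141 and 0.171 by edgeR). In DMSO SRM was 69.3 CPM in the KO and 68.1 CPM in the WT library of batch 1. In batch 2 it was 124 and 122 CPM in KO and 181 and 195 CPM in WT libraries. The differences of SRM and SMOX between lines were -1.46 ± 0.26 and -1.66 ± 0.39 (adjusted p = 0.00175 and 0.0116 by edgeR). They kept their calls in 16 and 15 of 16 alternatives.

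**Figure D4:**
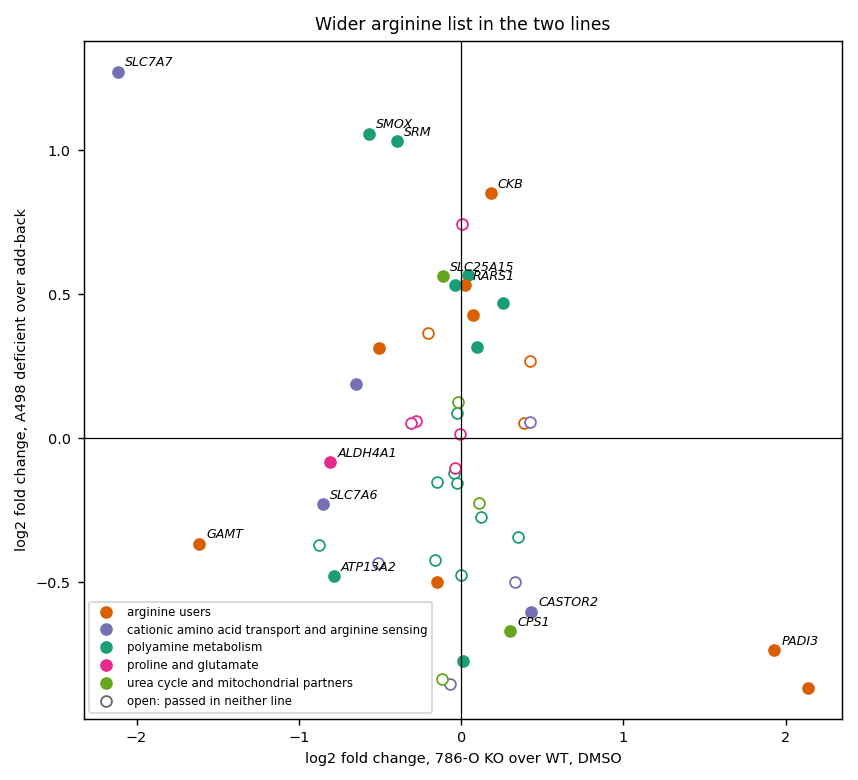
Log2 fold changes of genes of the wider arginine list, KO over WT cells of 786-O in DMSO (horizontal axis) against A498 libraries labelled deficient over add-back (vertical axis), coloured by role. Filled points passed in at least 1 line, and names mark up to 2 called genes per role and line. SLC7A7, SMOX and SRM lie above 0 on the vertical axis and below 0 on the horizontal one. Of these, SMOX and SRM were called in A498 only.

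By pattern, the genes nearest to ASS1 over the 6 groups were TMOD2, NCR3LG1, TDRP, PLCB1 and CAMSAP3, with root mean square differences of 0.50, 0.59, 0.65, 0.65 and 0.67 in centred group-mean log2 CPM. The median over the 12361 genes compared was 1.70. TMOD2, which encodes the actin-capping protein tropomodulin 2, averaged 1.13 CPM in KO and 3.43 CPM in WT cells in A1331852, 0.726 CPM in KO and 3.5 CPM in WT cells in DMSO, and 3.6 CPM in deficient and 15.2 CPM in add-back libraries. None of the partners was near ASS1 by this measure, since they lay between 1.40 for GATM and 2.23 for ARG2. These likenesses are descriptions over 6 group means that share line and batch. ASS1 had 0 and 2 summed counts in the KO groups, so its log2 CPM there was set largely by the prior count of 2. The distances therefore depend on that choice. ASS1 itself had a highest group mean of 2.52 CPM, while the genes named as nearest had to reach 5 CPM.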

How the data were processed

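The authors deposited counts of read pairs per gene name, made by featureCounts 1.5.0-p3 over exons of GENCODE 41 (strand setting 2) from primary, unique alignments, per the file headers. STAR, MultiQC 1.7 and DESeq2 stand in the submitters' processing notes, on GRCh38. The deposited exon length of each gene, another column of the same tables per the file headers, was used for levels per kilobase.

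The members and lists were chosen with earlier results of these data known. Tests used edgeR 4.0.16 (R 4.3.3): genes were filtered by group at a minimum count of 10, scaled by TMM and given quasi-likelihood F tests, with Benjamini-Hochberg adjustment over all genes and a threshold of 0.05. A first fit held the 786-O libraries (12) and a batch term, another the 4 A498 libraries, and a last one all 16, for the difference between lines. All 9 members passed the filter in each fit. The fits were tested on simulated data. Library totals were 14172118 to 36037616 counts. The labels do not call replicates separate cultures: the spread behind each p-value is that of these libraries and may be technical. Exact 95% intervals and floors of 3 counts over a group cover counting error only. Levels were compared with TMM factors over all 16 libraries.

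Same-numbered KO and WT libraries deviated together from their group means (r of 0.496 to 0.724 in DMSO and 0.228 to 0.465 in A1331852). For other-numbered ones r was -0.638 to 0.549 in DMSO and -0.363 to 0.191 in A1331852. Within batch 2 in DMSO, r was 0.549 and 0.497 for other-numbered and 0.561 and 0.496 for same-numbered libraries. Pairs by number thus cannot be told apart from batch in DMSO, and the numbers were used as pairs only in an alternative fit. Alternatives were DESeq2 1.42.0, limma 3.58.1 voom, other scalings and filters, batches alone, the replicate block and each library left out. Named genes were the 9 members, SETD2, up to 2 called genes per role and comparison of the wider list, by smallest adjusted p (examples are printed, and 1 of these genes is not reported here), and the 5 genes nearest to ASS1 among those that reached 5 CPM in a group mean. Motifs were searched in promoter windows of RefSeq (GRCh38.p14).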

Additional observations from a re-analysis of the deposited data

Results flagged for a closer look

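For 4 partners of ASS1 the effect of SETD2 loss differed between the lines by the test of the difference itself, 786-O in DMSO minus A498, on the log2 scale with edgeR. The difference was -1.08 for PYCR1, -0.77 for SLC7A1, -0.74 for ALDH18A1 and -0.72 for ASL. PYCR1, which makes proline, had an adjusted p of 0.0363 by edgeR, and between 0.0659 and 0.164 with each library left out. ALDH18A1 kept its call in 13 of 16 alternatives, SLC7A1 in 9, ASL in 6 and PYCR1 in 4. Line and batch cannot be told apart in these differences.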

How the results depend on the processing

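OAT (KO against WT, each treatment), ALDH18A1 (KO against WT in A1331852) and PYCR1 (A498) kept direction and call in all alternatives run. The number of partners called, of 8, moved as follows. For KO against WT in DMSO, 1 became 2 with the replicate block and 5 in batch 2 alone. For KO against WT in A1331852, 2 became 4 with no low-count filter and 4 with the replicate block. For A1331852 against DMSO in WT cells, 0 became 1 with no filter and 2 with the replicate block. In KO cells, 1 became 3 with no filter, 2 with the replicate block, 0 in batch 1 alone and 2 without both A1331852 replicates 3, an alternative chosen after seeing the data, and ranged from 0 to 1 with each library left out. For the difference of responses, 0 became 1 with no filter and 2 without both replicates 3. With each library left out, A498 ranged from 1 to 5 called partners and the difference between lines from 0 to 2. The cause was not tested, except that fewer libraries were fitted in batches alone and with libraries left out. Leaving out WT A1331852 replicate 3 turned ARG2 (KO against WT, A1331852) to 0.40, within a range of -1.98 to 0.40. ODC1 in A1331852 against DMSO in KO cells turned to -0.27 with the replicate block. Numbers did not pair A1331852 with DMSO libraries (r of -0.0492 to 0.0591). In A498, r was 0.0872 for same-numbered and -0.0872 for other-numbered libraries. With 2 libraries a group these are 1 value, so pairing could not be judged there. The ASS1 ratio ranged from 7.19 to 11.5 (A1331852), 23.6 to 38.6 (DMSO) and 2.30 to 19.3 (A498) with each library left out. Over all genes, calls ranged from 1490 to 9276 (main 3001) for KO against WT in DMSO, 2376 to 6278 (4588) in A1331852, 0 to 2831 (23) for A1331852 in WT cells, 85 to 5227 (2201) in KO cells, 0 to 929 (48) for the difference of responses, 2246 to 6272 (4657) in A498 and 1151 to 2852 (2362) between lines. ASS1 and GATM are limited by depth, with at most 47 counts of ASS1 in a library.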

Other observations

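PRODH2, hydroxyproline dehydrogenase, was scarce but differed between treatments. It was 0.0532, 0.104 and 0.265 CPM in KO and 0.725, 0.451 and 0.428 CPM in WT libraries in A1331852, and 1.76, 1.85 and 0.542 CPM in KO and 0.466, 0.342 and 0.194 CPM in WT libraries in DMSO. The log2 change of KO over WT was -1.96 ± 0.52 in A1331852 (adjusted p = 0.0158 by edgeR) and 2.03 ± 0.38 in DMSO (adjusted p = 0.00336), and the difference of responses was -3.98 ± 0.64 (adjusted p = 0.0274 by edgeR). The difference lost its call when replicate 1 or 2 of any 786-O group was left out (adjusted p 0.0501 to 0.149), in batch 1 alone (1 DMSO library per genotype, adjusted p = 0.99986) and with no batch term (0.211), and the change in A1331852 did so without KO replicate 1, KO replicate 2 or WT replicate 1 (adjusted p 0.0541 to 0.0661), in batch 1 alone (0.0830) and with no batch term (0.0765).

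In KO cells, 4 of 7 tested proline and glutamate genes passed for A1331852 against DMSO, 1 higher and 3 lower, beside 13.5% of all genes called (6.46% higher and 7.08% lower) and 11 of 48 genes of the whole wider list. ALDH4A1 averaged 13.2 ± 1.16 CPM in A1331852 and 31.9 ± 4.06 CPM in DMSO (SD, n = 3 each), with a log2 change of -1.06 ± 0.16 (adjusted p = 0.00220 by edgeR). In WT cells ALDH4A1 averaged 29.0 ± 4.60 CPM in A1331852 and 56.2 ± 7.08 CPM in DMSO. Its log2 change in WT cells was -0.73 ± 0.16 and did not pass (adjusted p = 0.117 by edgeR). The difference of its responses did not pass either (-0.33 ± 0.18, adjusted p = 0.562 by edgeR).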
